A study of Rattus with 18 samples.

Results

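Infarcted rat hearts labelled iECM, an infusible extracellular matrix, were compared with infarcted hearts labelled control at day 3, counted from the infusion. The comparison holds the samples whose time point label is day 3, 9 of the 18 in the series, with agent iECM for 5 and agent control for 4. All come from Sprague-Dawley rats infarcted for 35 min and are free wall of the left ventricle, and the labels give neither age nor sex. The treatment text of every sample, controls included, states that iECM was infused, so the groups rest on the agent label alone, and they leave unsaid what was given to control hearts. It is also unstated whether the samples, called hearts here, came from different animals, and the p-values refer to the spread among them alone.

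After an infarct, dying muscle sets off an early inflammatory phase in which neutrophils and then macrophages enter and release cytokines, chemokines and nitric oxide. That phase then gives way to repair, with new vessels, fibroblast activation and matrix deposition. Injured heart muscle also shifts its fuel use between fatty acids, its main substrate, and glucose. The series was designed to look at inflammatory, fibrotic and metabolic pathways, and the genes below are ordered by these roles.

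RNA was counted by NanoString hybridization, in which barcoded probes are counted without amplification. The value table gives counts on numbered rows without gene names, 380 for genes and 14 for controls, so it shows how each row behaved in each heart. The authors' deposited day 3 table names 23 genes but gives no value per heart. No row was given a gene name here, and the tissue could not be checked against its defining markers for that reason. In bulk tissue, fewer cells of a type and less RNA per cell cannot be told apart.

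Total gene counts ranged from 1083285 to 1687688 per heart, and 294 of 380 gene rows were above background in all 9 hearts. Control replicate 2 and iECM replicate 1 had the lowest totals, 1083285 and 1101407 counts. They also lay at an end of a leading axis of expression. On the first principal component, which held 45.7% of the variance, iECM replicate 1 lay at -10.2 and the other hearts between -3.91 and 4.49. Control replicate 2 lay at 7.63 on the next component, and the other hearts between -2.44 and 1.62. None of these totals and positions was past the limit of the check, given at the end, for a heart far from its group. Results are given with and without these 2 hearts where they matter.

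The fold changes of the authors' deposited table carry no stated base or direction, and both were read from the counts. After the mean of the negative-control rows was subtracted and each heart scaled on the positive-control rows and the last 6 rows, 310 rows were measurable. The largest log2 ratios of iECM over control were then 1.99 and 1.88 and the lowest was -1.15. The authors' deposited table runs from -0.99 to 1.96, apart from 1 value off that scale. No row lay under -1.4, as the opposite direction would need, and on the natural log the highest ratio was 1.38. With hearts scaled on the gene total the highest ratio was 1.58 and the lowest -1.19. The reading rests on the 2 rows of largest ratio and on iECM replicate 1, without which they stood at 1.07 and 0.91 and the lowest row at -0.85. The deposited values are printed as log2 of iECM over control, and both base and direction are inferred.

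Nos2 and Cpt1a had the lowest p-values the authors deposited. In the authors' deposited table Nos2, the inducible nitric oxide synthase that activated macrophages use to make nitric oxide, fell by 0.99 on the log2 scale with iECM (p = 2.34e-04, q = 0.0437), a ratio of 0.503. Cpt1a, which couples long-chain fatty acids to carnitine for entry into mitochondria, rose by 0.52 (p = 1.57e-04, q = 0.0437), a ratio of 1.43, in the authors' deposited table. They were the 2 of 374 genes with a q under 0.05, or 0.535% of those tested. In the counts, described below, edgeR's quasi-likelihood test had a smallest unadjusted p of 0.0154 and called no row. The likelihood ratio test of edgeR also called none, so these 2 calls were not reproduced here. Both tests here used counts without background subtraction, scaled by TMM, for 371 rows in 1 model over all 18 samples. The authors' tool is not named in the sources used here, so the analyses may differ in input, scaling and samples. The cause of the difference in calls was not tested. The table lists 23 genes at an unadjusted p under 0.05, or 6.15% of the 374, and 15 of the 23 have positive values. It holds no standard error, no replicate values and no gene with a larger p, so nothing can be said of the genes it does not list.

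**Figure D1:**
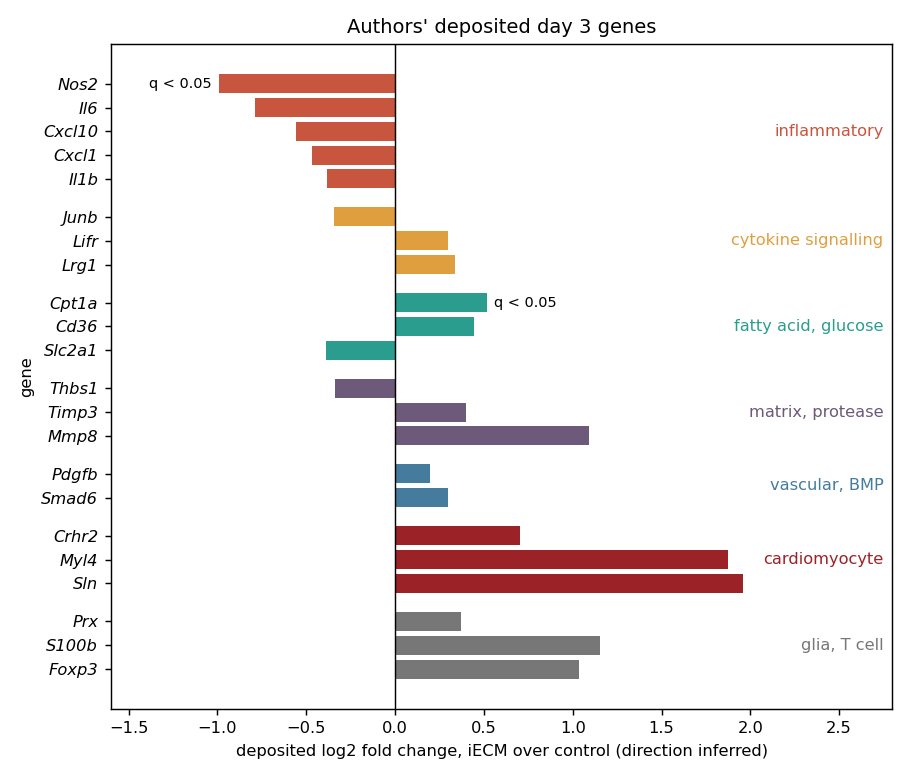
Bars show the log2 fold change of iECM over control at day 3 from the authors' deposited table, for 22 of its 23 genes grouped by role, with the direction inferred and the genes of q under 0.05 marked. The 5 inflammatory genes lie below 0, the cardiomyocyte genes Myl4 and Sln reach 1.87 and 1.96, and Rnase1, listed at 25.9, is off the scale and not drawn.

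Inflammatory mediators stood below 0. Of a list of 29 pro-inflammatory cytokines, chemokines and enzymes, 5 are in the authors' deposited table, all with negative values and a median of -0.56. Il6, the cytokine that drives the acute phase response, stood at a ratio of 0.580 (q = 0.531) in the authors' deposited table. Cxcl10, a chemokine that interferon induces and that draws T cells, stood at a ratio of 0.679 (q = 0.615) in that deposited table. The authors' deposited table put Cxcl1, a chemokine that draws neutrophils, at a ratio of 0.724 (q = 0.646) and Il1b, the cytokine released by inflammasome activation, at 0.767 (q = 0.182). Nos2 passed the q threshold and the other 4 did not. The lists were drawn up with these genes known, so the count describes the table and does not test the list. How many members of this and the later lists were on the panel is unknown, so the counts are not shares of tested genes. Over all 374 tested genes the share in the deposited table was 6.15%.

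Genes that carry or answer cytokine signals were mixed, with 3 of a list of 18 in the table. Junb, an AP-1 subunit induced within minutes of a stimulus, stood at -0.34 (q = 0.182) in the authors' deposited table. Lrg1, a secreted glycoprotein that modulates TGF-beta signalling in endothelium, stood at 0.34 with the 4th lowest p of the table, 0.00124, and q = 0.116 among the values the authors deposited. Lifr, the receptor chain for leukemia inhibitory factor, stood at 0.30 (q = 0.646) in the deposited table of the authors. None of these 3 passed the threshold.

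Fuel uptake genes differed in sign between substrates. Besides Cpt1a, Cd36, which takes up long-chain fatty acids at the cell surface, stood at a ratio of 1.36 (q = 0.615) in the authors' deposited table. Slc2a1, the basal glucose transporter GLUT1, stood at a ratio of 0.765 (q = 0.646) in the same deposited table of the authors. These are 3 of the 23 genes on the list of fatty acid and glucose uptake and oxidation, and 1 of them, Cpt1a, passed the threshold. A difference between the fatty acid genes and the glucose transporter was not tested.

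Matrix and vessel genes, 3 of a list of 25 and 4 of a list of 33, mostly had positive values, and none passed the threshold. Mmp8, the collagenase stored in neutrophil granules, stood at a ratio of 2.13 (q = 0.182) in the authors' deposited table, opposite in sign to the neutrophil chemokine Cxcl1. Timp3, a matrix-bound inhibitor of metalloproteases, stood at 0.40 (q = 0.646), and Thbs1, a matrix glycoprotein that activates latent TGF-beta and restrains angiogenesis, at -0.34 (q = 0.646) in the authors' deposited table. Pdgfb, which recruits pericytes to vessels, had the value nearest to 0 among the 23, at 0.20 (q = 0.646) in the authors' deposited table. Smad6, an inhibitory SMAD of the BMP pathway, stood at 0.30 (q = 0.540) there, also from the authors' deposited table.

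Rnase1, a ribonuclease that vascular endothelium secretes, was listed at 25.9 with p = 6.61e-04 and q = 0.0825 in the authors' deposited table. It is beyond any ratio of raw counts, since the highest day 3 count has a log2 of 18.0, so it was not read as a size. After background subtraction, 5 unnamed rows had an iECM mean above 0 and a control mean of 0 or less, and 1 row the reverse. No log ratio can be formed for such rows, and whether Rnase1 is among them is unknown. Only the sign of Rnase1 is counted among the positive values.

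The largest values that can be read as sizes belonged to the muscle genes Sln and Myl4. Of a list of 21 cardiomyocyte genes 4 are in the authors' deposited table, all positive, with a median of 1.51. They are Sln, Myl4, Crhr2 and S100b, and S100b is counted again below among nerve and glial genes. Sln, the small membrane peptide that inhibits the sarcoplasmic calcium pump and is abundant in atria, stood at a ratio of 3.89 (q = 0.542) in the authors' deposited table. Myl4, the essential myosin light chain of atrial and fetal ventricular muscle, stood at a ratio of 3.67 (q = 0.182) in the authors' deposited table. Crhr2, the receptor for urocortins in the heart, stood at 1.63 (q = 0.408) on the same ratio scale in the authors' deposited table. The 5 genes beyond a 2-fold difference in either direction were Sln, Myl4, S100b, Mmp8 and Foxp3, all higher in the authors' deposited table and none past the q threshold.

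S100b, a calcium-binding protein of glia that stressed cardiomyocytes also make, stood at a ratio of 2.23 (q = 0.542) in the authors' deposited table. Prx, a protein of myelinating Schwann cells, stood at 1.29 (q = 0.646) on the ratio scale of the authors' deposited table. The transcription factor that defines regulatory T cells, Foxp3, stood at a ratio of 2.05 (q = 0.408) in the authors' deposited table. These are 2 of 8 nerve and glial genes and 1 of 10 regulatory T cell and anti-inflammatory genes listed. How far these values depend on single hearts cannot be read from that table.

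The unnamed rows show how the spread between hearts bears on ratios of that size. The row with the largest background-corrected ratio, 1.99, held 17, 55, 56 and 120 counts in control hearts. In iECM hearts it held 263 and 216 counts in replicates 1 and 5 and 50, 85 and 54 counts in replicates 2, 3 and 4. The row with the next largest ratio, 1.88, held 150 to 173 counts in control hearts, 817 and 537 counts in iECM replicates 1 and 5, and 164 to 242 in the other iECM hearts. In both rows 2 of 5 iECM hearts were high. By corrected and scaled level, the other 3 lay within the control range in the first row, and 2 of them did in the next row. Without iECM replicate 1 these ratios were 1.07 and 0.91, and without iECM replicate 5 they were 1.90 and 1.86.

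The row with the lowest ratio behaved otherwise. It held 43 to 63 counts in control hearts and 13, 20, 36, 39 and 40 counts in iECM hearts, so the groups did not overlap. Its log2 ratio was between -1.42 and -0.85 with any 1 heart left out. The counts of 13 and 20, in iECM replicates 1 and 3, were under the background limits of those hearts, 26.4 and 24.5 counts. The row was measurable through its control hearts, so its ratio and the lack of overlap rest partly on iECM levels at background. edgeR's quasi-likelihood test gave this row an unadjusted p of 0.217. These 3 rows were singled out after their values were seen.

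**Figure D2:**
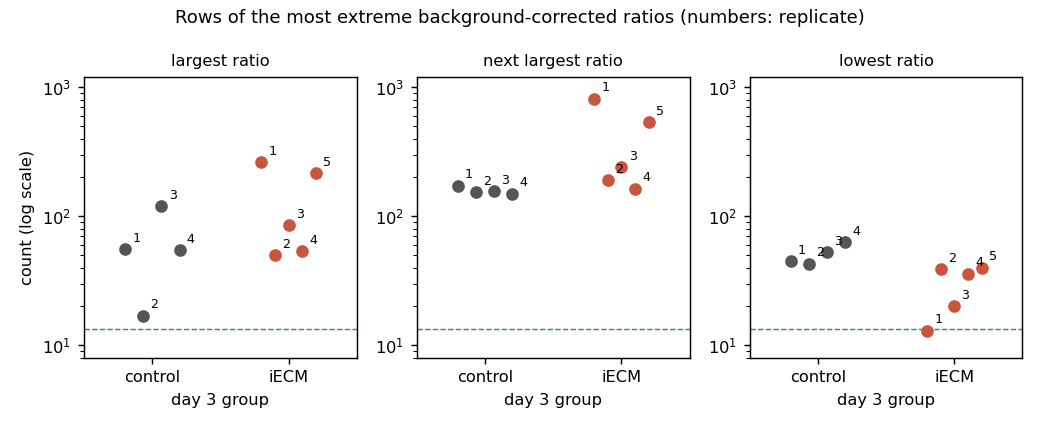
Counts per heart, on a log axis, of the 3 unnamed rows with the largest, next largest and lowest background-corrected ratio of iECM over control at day 3, with replicate numbers beside the points and the mean negative-control count as a dashed line. The 2 rows of largest ratio are highest in iECM replicates 1 and 5, at 263 and 216 counts in the left panel, while in the right panel the iECM hearts, at 13 to 40 counts, lie below the control hearts.

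Across all rows no difference between iECM and control hearts passed the test. edgeR's quasi-likelihood test with Benjamini-Hochberg adjustment called 0 of 371 rows (0%), and the smallest adjusted p was 0.901. The count was also 0 with DESeq2, limma on log2 CPM, limma-voom and the likelihood ratio test of edgeR. At an unadjusted p under 0.05 there were 11 rows (2.96%), of which 3 were higher and 8 lower with iECM. Without control replicate 2 and iECM replicate 1 these were 3 and 1. Leaving out iECM replicate 1 or iECM replicate 5 alone gave 1 and 2, leaving out control replicate 2 alone gave 4 and 3, and leaving out iECM replicate 4 alone gave 6 and 19. The estimated log2 changes ran from -0.75 to 1.49 with a median standard error of 0.18. For 339 rows the 95% interval stayed within 2-fold both ways, 28 of them above background in no day 3 heart, and inside 1.5-fold for 220.

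**Figure D3:**
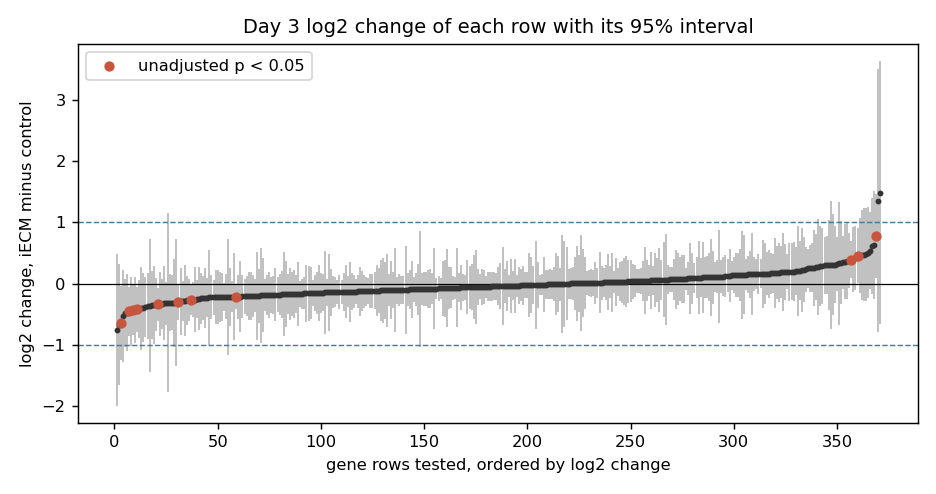
Log2 change of iECM minus control at day 3 for each of 371 unnamed rows, ordered by size, with the 95% interval derived from edgeR's F statistic as a grey line. The 11 rows of unadjusted p under 0.05 are in colour, and dashed lines mark 2-fold changes. Most intervals cross 0, and 339 lie inside the dashed lines.

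Row 175 had the lowest unadjusted p of the rows higher with iECM. Its level was 187, 142, 199 and 216 CPM, counts scaled by edgeR to the library size, in control replicates 1 to 4, and 182, 261, 306, 222 and 246 CPM in iECM replicates 1 to 5. Of the iECM hearts 4 lay above the highest control heart and iECM replicate 1 lay within the control range. The means were 186 ± 31.5 CPM (SD, n = 4) and 243 ± 46.2 CPM (SD, n = 5), a log2 change of 0.39 (SE 0.14, unadjusted p = 0.0154 and adjusted p = 0.901 by edgeR).

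Row 151 came next, at 7.23, 13.7, 8.11 and 6.29 CPM in control hearts and 18.8, 10.6, 12.1, 15.0 and 18.3 CPM in iECM hearts. The groups overlapped through control replicate 2. The log2 change was 0.78 (SE 0.33, unadjusted p = 0.0282 and adjusted p = 0.901 by edgeR), in a row that was above background in none of the 9 hearts. Its raw counts were 10 to 16 in control hearts and 18 to 30 in iECM hearts. The background limits, set 2 SD above each heart's negative-control mean, were 22.1 to 34.1 counts. After background subtraction it was among the 5 rows with an iECM mean above 0 and a control mean of 0 or less.

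Row 245 had the lowest unadjusted p of the rows lower with iECM, at 45.8, 51.4, 51.0 and 52.2 CPM in control hearts and 36.7, 37.7, 40.6, 45.0 and 37.9 CPM in iECM hearts. All iECM hearts lay below all control hearts, which held for 2 of 371 rows (0.539%), while no row had every iECM heart above every control heart. The log2 change was -0.34 (SE 0.13, unadjusted p = 0.0171 and adjusted p = 0.901 by edgeR).

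Row 181 was abundant, at 4747, 8899, 4911 and 5397 CPM in control hearts and 3547, 3977, 5049, 5151 and 4650 CPM in iECM hearts. Control replicate 2 was far above the other hearts, and the remaining control hearts lay within or just above the iECM range. The log2 change of -0.42 (SE 0.18, unadjusted p = 0.0286 and adjusted p = 0.901 by edgeR) was -0.17 without control replicate 2 and -0.10 without that heart and iECM replicate 1. None of the 4 rows is paired with a gene in the files.

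**Figure D4:**
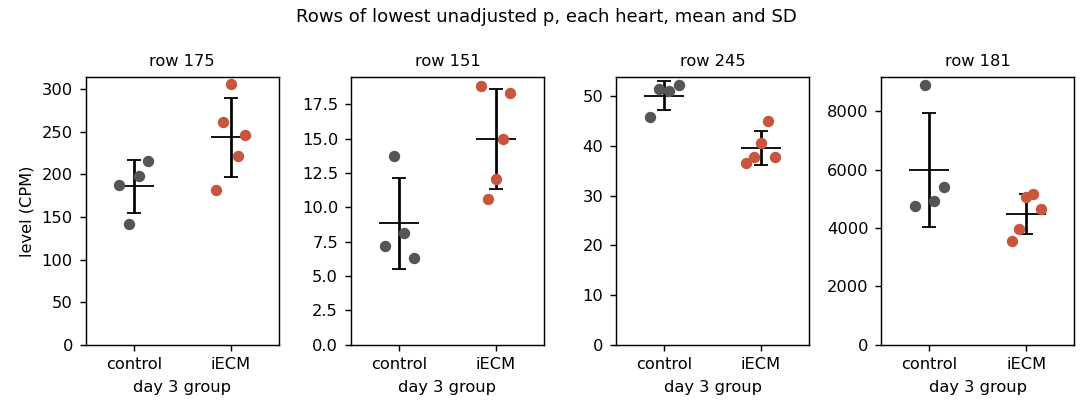
Level in CPM in each day 3 heart of the 2 rows higher and the 2 rows lower with iECM that had the lowest unadjusted p, with the mean as a bar and the SD as whiskers. In row 245 the iECM hearts, at 36.7 to 45.0 CPM, lie below the control hearts, while the difference in row 181 comes with 1 control heart at 8899 CPM.

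Whether these differences were particular to day 3 was tested as the difference between the iECM effects on the 2 days. edgeR's quasi-likelihood test called 0 of 371 rows (0%) for this interaction, and 10 (2.70%) had an unadjusted p under 0.05. Row 181 had the lowest interaction p of the 4 rows above, with a log2 change of 0.25 at day 1 against -0.42 at day 3 (difference -0.67, SE 0.25, unadjusted p = 0.0157 and adjusted p = 0.928 by edgeR). For rows 175, 151 and 245 the day 1 change was 0.00, 0.03 and -0.10, and the difference had an unadjusted p of 0.0764, 0.148 and 0.218 by edgeR. None of the 11 rows was also at an unadjusted p under 0.05 on day 1.

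The spread between hearts was mostly larger in the iECM group. The SD of the log2 level was larger in iECM hearts for 271 of 371 rows, with a median of 0.28 against 0.18 in control hearts. Without iECM replicate 1 the iECM median was 0.22, and the control median was not recomputed without control replicate 2. This difference in spread was not tested.

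The sign of small changes moved with the scaling. With TMM scaling, which assumes that most rows do not change, 40.7% of rows were above 0 with a median log2 change of -0.04. With hearts scaled on the last 6 rows, 60.9% were above 0 with a median of 0.06. The last 6 rows lie after the control rows, and the q-values of the authors' deposited table correspond to 374 tested genes, the number of gene rows before the controls. Of these 6 rows the third stood at 24343 ± 2071 CPM in control hearts (SD, n = 4) and 21000 ± 2087 CPM in iECM hearts (SD, n = 5), a log2 change of -0.21 with an unadjusted p of 0.0471 by edgeR. The other 5 had changes from -0.15 to -0.01. Relative to TMM scaling, the last 6 rows together stood at 1.04 ± 0.07 in control hearts (SD, n = 4) and 0.98 ± 0.15 in iECM hearts (SD, n = 5). The exact two-sided permutation p of that difference was 0.492. Replicate 1 of the iECM hearts stood at 0.741 and the others between 0.942 and 1.12. What moved the signs between scalings was not tested.

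The authors also deposited KEGG pathways and gene ontology (GO) biological process terms for the day 3 genes. Their KEGG test used the 17 genes with an annotation against 9373 background genes, and their GO test used all 23 against 17962. Both backgrounds are larger than the 374 genes that could have been listed, and 21 of the 23 had a q of 0.05 or more. The deposited p-values of terms are given as descriptions of which genes fall together.

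Signalling by inflammatory cytokines led the KEGG table. The TNF signaling pathway, through which tumour necrosis factor activates NF-kappa B and MAP kinases, held Cxcl1, Cxcl10, Il1b, Il6 and Junb of 116 members (adjusted p = 1.49e-04 in the authors' deposited table). Each of the 5 has a negative value there. The authors' deposited table put Malaria (adjusted p = 2.24e-04) and Amoebiasis (adjusted p = 8.07e-04) at ranks 2 and 4, with Il1b and Il6 in both, Cd36 and Thbs1 in the first, and Cxcl1 and Nos2 in the other. Insulin resistance held Cpt1a and Cd36 with positive values and Slc2a1 and Il6 with negative ones (adjusted p = 9.23e-04 in the authors' deposited table).

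A few genes carried most pathways. Il6 is in 29 and Il1b in 25 of the 38 pathways of the authors' deposited table, and 31 (81.6%) hold at least 1 of them. Of the 38 pathways 28 (73.7%) contain neither Nos2 nor Cpt1a, the genes that passed the q threshold in the authors' deposited table. In 22 pathways all listed genes have negative values, in 1, PPAR signaling with Cd36 and Cpt1a, all are positive, and in 15 the signs are mixed. Sln, Myl4, Crhr2, S100b, Prx, Mmp8, Lrg1 and Rnase1 are in none of the deposited pathways, so the genes of largest positive value do not enter them, apart from Foxp3.

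**Figure D5:**
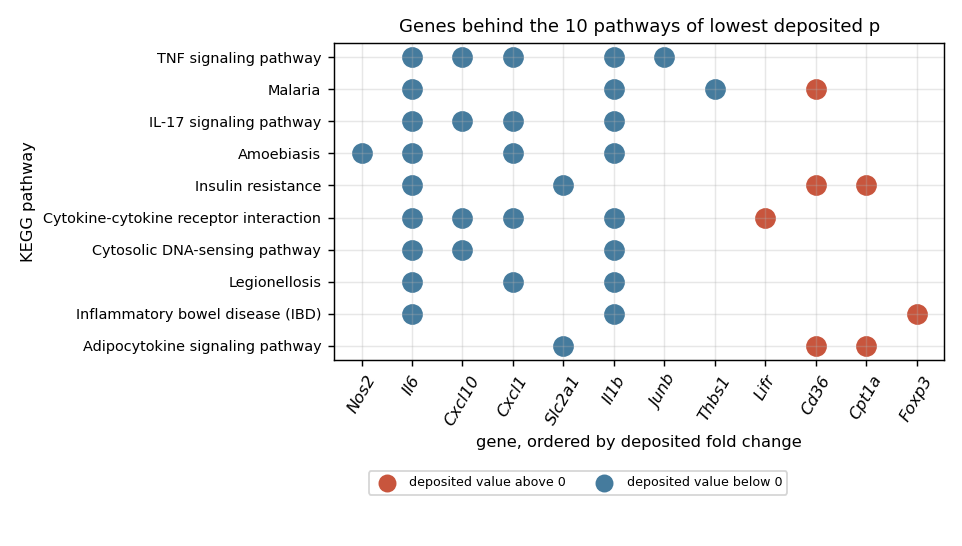
Dots mark which day 3 genes fall in each of the 10 KEGG pathways of lowest p in the authors' deposited table, with genes ordered by deposited fold change and coloured by its sign. Il6 is in 9 of these 10 pathways, and the positive genes Cd36 and Cpt1a occur together in Insulin resistance and Adipocytokine signaling.

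GO terms spread the same genes over 707 entries. The term of lowest p was response to mechanical stimulus, with 10 genes (adjusted p = 5.67e-09 in the authors' deposited table). It held Cxcl10, Il1b, Il6, Junb, Nos2, Slc2a1 and Thbs1 with negative values and Cd36, Pdgfb and Timp3 with positive ones. Of the 10 leading terms, 3 concern reactive oxygen species, 3 nitric oxide or reactive nitrogen species and 2 interleukin-6 production. Nitric oxide biosynthetic process (adjusted p = 1.39e-05 in the authors' deposited table) held Nos2, Il1b and Il6 with negative values and Cd36 and Mmp8 with positive ones. Response to glucocorticoid held 7 genes (adjusted p = 1.39e-05 in the authors' deposited table), of which Crhr2 and S100b are positive. The leading term with at least 3 vascular and BMP genes, regulation of cellular response to growth factor stimulus, held Lrg1, Pdgfb and Smad6 with positive values and Thbs1 with a negative one (adjusted p = 0.00380 in the authors' deposited table).

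Il1b is in 356 (50.4%) and Il6 in 278 (39.3%) of the GO terms in the authors' deposited table, and 134 terms rest on 1 gene. Among the 316 terms with at least 3 genes, 280 hold both signs, 31 hold negative values alone and 5 positive values alone. Granulocyte chemotaxis, with Cxcl1, Cxcl10, Il1b and Thbs1, is the one-sided negative term of lowest adjusted p, 4.83e-04, in the authors' deposited table. Feeding behavior, with Cd36, Cpt1a and Crhr2, has the lowest adjusted p of the positive ones, 0.00517, in the authors' deposited table. Of the genes on the cardiomyocyte list Crhr2 is in 91 terms, S100b in 18, Sln in 12 and Myl4 in 5. Regulation of heart contraction holds Myl4, Crhr2 and Nos2 (adjusted p = 0.0105 in the authors' deposited table). Prx and S100b share myelination (adjusted p = 0.0486 in the authors' deposited table). These last 2 terms were picked after their values were seen.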

How the data were processed

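The labels' protocols describe RNA from flash-frozen left ventricular free wall, of which 50 to 100 ng was hybridized with a NanoString Immunology Panel. The deposited value table holds raw counts, read as such because totals differ between samples. Per the file headers, the authors' day 3 table gives a log fold change (read here as log2), an lr score, and p-values and q-values, and the deposited term tables give p-values and gene numbers. The p-values equal chi-square tails at lr with 1 degree of freedom. No tool is named for it in the sources used here.

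Rows 375 to 380 were read as positive and rows 381 to 388 as negative controls, from their values. The 380 gene rows were filtered (filterByExpr, minimum count 10, leaving 371), scaled by TMM and tested with edgeR 4.0.16 (quasi-likelihood, 1 model of 4 group means over 18 samples, Benjamini-Hochberg threshold 0.05). DESeq2 1.42.0 and limma 3.58.1 were alternatives. The tests were checked on made-up values, for edgeR on simulated counts with many rows changed 1.5-fold or 2-fold. That setting does not give the power to call a few changed rows. RefSeq symbols (GRCr8) matched all 15 Entrez identifiers among the pathway genes. Named were each gene of the day 3 table, the leading terms, and the 2 rows of lowest p in each direction. The members, lists and rules were chosen with earlier results of these data known.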

Additional observations from a re-analysis of the deposited data

Results flagged for a closer look

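Of 32 sets of values checked for a heart far from the others of its group, 1 was past the limit, and chance flags about 1 in 20. In row 181 control replicate 2 stood at 8899 CPM, against 5397 CPM for the nearest control heart and 4747 CPM for the lowest.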

How the results depend on the processing

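No paired analysis was possible because replicates were numbered here in accession order, which pairs no samples. The count of 0 called rows at day 3 stayed 0 under each of 11 alternatives, with any 1 heart left out, and with control replicate 2 and iECM replicate 1 both left out, a choice made after seeing the data. The interaction count stayed 0 with DESeq2, limma and RLE scaling. At an unadjusted p under 0.05 the 8 lower rows became 0 with positive-control scaling, 1 with scaling on the last 6 rows, 3 with RLE scaling, 3 with DESeq2, 5 with edgeR's likelihood ratio test and 2 with the background filter. The 3 higher rows ranged from 1 to 6. Rows 175, 151, 245 and 181 had the same direction throughout, but row 151 does not pass the background filter. The difference in gene total, iECM minus control, was -61377.9 counts (exact two-sided permutation p = 0.730, n = 5 and 4) and ranged from -193384.9 to 17752.5 with 1 heart left out, reversing to 8082.7 without control replicate 1 and to 17752.5 without iECM replicate 1. The cause of these moves was not tested. For rows at or below background, depth limits any statement on size.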
